A study of Mus musculus with 2 samples.

Results

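Activator protein 1 (AP-1) is a dimer of basic leucine zipper (bZIP) proteins, and the genes of its subunits were examined in mouse mammary basal cells grown with or without TNF-α, together with other transcription factor genes of the immediate early class. The 10 genes were *Fos*, *Fosb*, *Fosl1* and *Fosl2* of the FOS family, then *Jun*, *Junb* and *Jund* of the JUN family, and *Atf3*, *Egr1* and *Myc*. They were chosen by symbol, and all 10 were found among the 49492 genes of the count table. Basal cells of the wild-type (WT) mammary gland, sorted by FACS from adult females, had been embedded in matrix gel and grown in 3D. Both cultures shared a medium with EGF and ITS (insulin, transferrin and selenium) and lasted 10 days, and the TNF-α treated culture also received recombinant mouse TNF-α at 10 ng/mL. RNA of the colonies/organoids was sequenced after preparation with the SMARTER mRNA-Seq kit, with 1 control library of 44462275 counts and 1 TNF-α library of 53487087 counts. The labels name no strain and no number of animals for these cultures.

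FOS proteins bind DNA only when paired with a partner such as a JUN protein, whereas JUN proteins can also pair with each other. Immediate early genes are switched on by growth factors, cytokines and stress without new protein synthesis, and their transcripts are usually short-lived. TNF-α is a known activator of the JNK and p38 kinases and of NF-κB, and EGF, present in both media, is a known activator of ERK, so both feed pathways that act on these genes.

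All 10 genes had at least 200 counts summed over both libraries, well above the minimum of 10 that was asked of a gene. A call of higher or lower needed a TNF-α to control ratio past 2-fold, that is, a log2 ratio above 1 or below -1. *Fos*, *Fosb* and *Egr1* fell past that limit, and 0 of the 10 genes passed it upwards. These calls rest on the fold alone, and all were lost in edgeR's exact test with an assumed coefficient of variation of 0.4. Among the 20771 genes with at least 10 counts, 8.56% were past 2-fold higher and 6.62% were past 2-fold lower. Among the 13609 genes with at least 200 counts, the depth class of these 10 genes, the shares were 4.01% higher and 2.87% lower. Of the 10 log2 ratios, 8 were below 0 and 2, those of *Fosl1* and *Myc*, were above. Their median was -0.54, against a median of -0.0001 over the genes with at least 200 counts. *Egr1*, at -1.05, lay just past the 2-fold limit, and *Jun*, at -0.71, was the nearest gene short of it. With 1 library per group no test of the conditions was possible, and no difference could be checked against a replicate library. The 95% Clopper-Pearson intervals given with the ratios account for counting error alone: PCR reads are not independent molecules unless molecular identifiers were used, and the sources used here name none. In these bulk cultures, fewer cells of a type and less RNA per cell cannot be told apart.

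**Figure D1:**
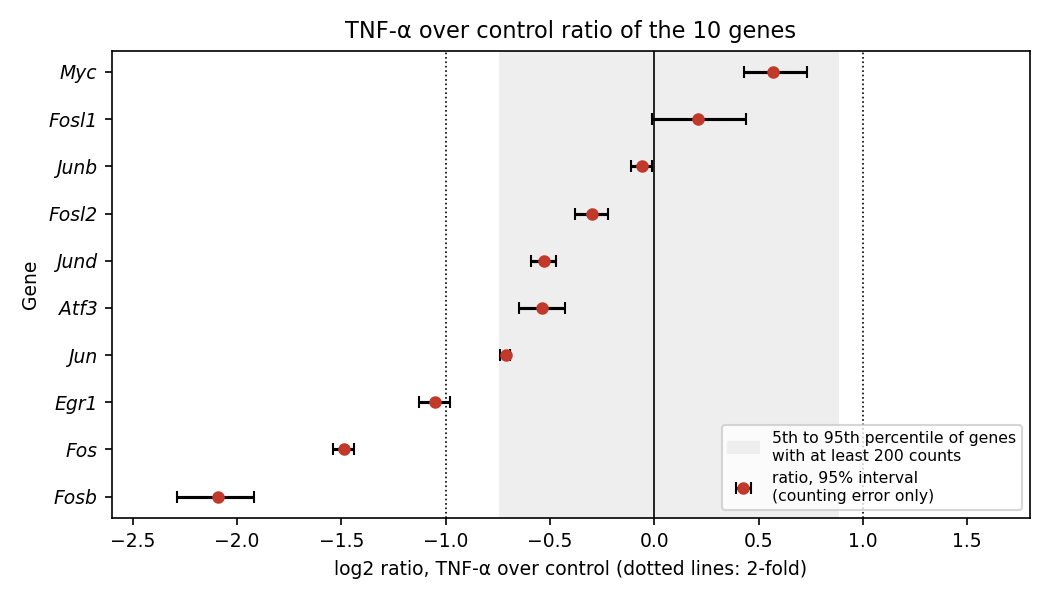
Log2 ratio of TNF-α to control (horizontal axis) for each of the 10 genes, ordered by ratio; points are the ratios of the 1 TNF-α library to the 1 control library, bars their 95% intervals for counting error, the grey band the 5th to 95th percentile of genes with at least 200 counts (-0.738 to 0.882), and dotted lines mark 2-fold. *Fosb*, *Fos* and *Egr1* lie left of the band and of the 2-fold line, and *Myc* lies farthest right at 0.57.

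The FOS family held the lowest ratios. *Fos* (GRCm38 chr12:85473890-85477273, plus strand) encodes c-FOS, the family's founding member and a common AP-1 partner of JUN. It had 11006 counts in the control library and 4702 with TNF-α, or 105 and 37.5 FPKM (reads scaled to exon length and library size). Its log2 ratio was -1.49 (95% interval -1.54 to -1.44), and 176 of the 13609 genes with at least 200 counts had a lower one.

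*Fosb* (chr7:19302696-19310051, minus strand) encodes FOSB, which also exists as a shortened splice form that the gene-level counts do not separate. It went from 1115 counts in the control library to 311 in the TNF-α library, or from 4.01 to 0.934 FPKM. The log2 ratio of -2.09 (-2.29 to -1.92) was the lowest of the 10, with 89 of the 13609 genes below it. The intervals of *Fos* and *Fosb* did not overlap, so within counting error the fall of *Fosb* was the steeper.

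The FOS family genes for the FOS-related antigens, FRA1 and FRA2, moved less. *Fosl1* encodes FRA1, which lacks the strong transactivation domain of c-FOS, and was counted at chr19:5447703-5455945 on the plus strand. It had 293 counts in the control library and 407 with TNF-α, which is 3.85 and 4.47 FPKM. Its log2 ratio of 0.21 (-0.01 to 0.44) had an interval that held 0, so a difference was not detectable at this depth. *Fosl2* (chr5:32135801-32157842, plus strand) encodes FRA2 and had 2554 and 2484 counts in the control and TNF-α libraries, or 5.92 and 4.81 FPKM. Its log2 ratio was -0.30 (-0.38 to -0.22), short of 2-fold.

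The makeup of the FOS family transcripts therefore differed between the libraries. Per exon length, *Fos* made up 88.4% of the summed FPKM of the 4 FOS genes in the control library and 78.6% with TNF-α. The share of *Fosb* was 3.37% in the control library and 1.96% with TNF-α. The share of *Fosl1* was 3.24% and 9.37%, and that of *Fosl2* was 4.98% and 10.1%, in the same order. As a share of reads, which is not scaled to length, *Fos* held 73.5% (95% Clopper-Pearson interval 72.8 to 74.2) and 59.5% (58.4 to 60.6) of its family. *Fos* was the leading FOS transcript in both libraries, and the FRA genes held larger shares with TNF-α. The ratio of *Fosl1* to *Fosb* in FPKM was 0.961 in the control library and 4.79 with TNF-α. The 4 genes summed to 119 FPKM in the control library and 47.7 FPKM with TNF-α, and their summed reads gave a log2 ratio of -1.18 (-1.22 to -1.14).

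Of the JUN family, 0 of 3 genes passed 2-fold, a count that says little beside the 4.01% higher and 2.87% lower among all genes with at least 200 counts. *Jun* (chr4:95049034-95052222, minus strand), a gene with a single exon, encodes c-JUN, the main substrate of JNK among the AP-1 proteins. It had 38019 counts in the control library and 27762 with TNF-α, or 268 and 163 FPKM, the highest level of the 10 genes in either library. Its log2 ratio was -0.71 (-0.74 to -0.69), with 722 of the 13609 genes lower. *Junb* (chr8:84974484-84978718, minus strand) encodes JUNB, which activates fewer AP-1 genes than c-JUN and can oppose it. It had 6352 and 7310 counts in the control and TNF-α libraries, or 61.9 and 59.5 FPKM, and a log2 ratio of -0.06 (-0.11 to -0.01). If both ends of each read pair were counted, so that the fragments number nearer to the counts divided by 2, this interval widens to -0.13 to 0.01 and holds 0. *Jund* (chr8:70698949-70700616, plus strand) encodes JUND, the JUN protein that resting cells make most steadily. It had 4927 counts in the control library and 4075 with TNF-α, or 66.3 and 45.8 FPKM, and a log2 ratio of -0.53 (-0.59 to -0.47).

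Each JUN gene shares exon bases with a gene on the other strand, and the sources used here do not say whether counting used the strand, so reads of the overlapping stretches cannot be told apart. *Jun* shares 232 bases with the antisense gene *Junos*, which had 1354 counts in the control library and 955 with TNF-α (log2 ratio -0.76). *Junb* shares 173 bases with *Prdx2*, a peroxiredoxin gene with 2171 and 2847 counts (log2 ratio 0.13). *Jund* shares 877 of its 1668 exon bases with the antisense gene *Gm11175*, whose 3149 and 2494 counts gave a log2 ratio of -0.60. The level of *Jund* is the most uncertain of the 3 for that reason. The exons of the other 7 genes share no base with another gene of the table.

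In the JUN family, *Jun* made up 67.6% of the summed FPKM of the 3 JUN genes in the control library and 60.8% with TNF-α. The share of *Junb* was 15.7% in the control library and 22.2% with TNF-α, while that of *Jund* was 16.7% and 17.1%. *Jund* was thus above *Junb* per exon length in the control library and below it with TNF-α, an order that rests on the uncertain level of *Jund*. The share of *Junb* among the family's reads was 12.9% (12.6 to 13.2) and 18.7% (18.3 to 19.1), so this difference is beyond counting error. *Jund* held 9.99% and 10.4% of those reads, which are not scaled to length, below *Junb* in both libraries. Summed FPKM of the 3 genes was 396 in the control library and 268 with TNF-α, and their summed reads gave a log2 ratio of -0.59 (-0.61 to -0.57). The ratio of summed FPKM of the FOS family to that of the JUN family was 0.300 in the control library and 0.178 with TNF-α, so JUN transcripts outnumbered FOS transcripts per exon length in both. The ratio of *Fos* to *Junb* in FPKM was 1.70 in the control library and 0.629 with TNF-α, a change of order between these genes. What these transcript shares mean for AP-1 dimers was not measured.

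**Figure D2:**
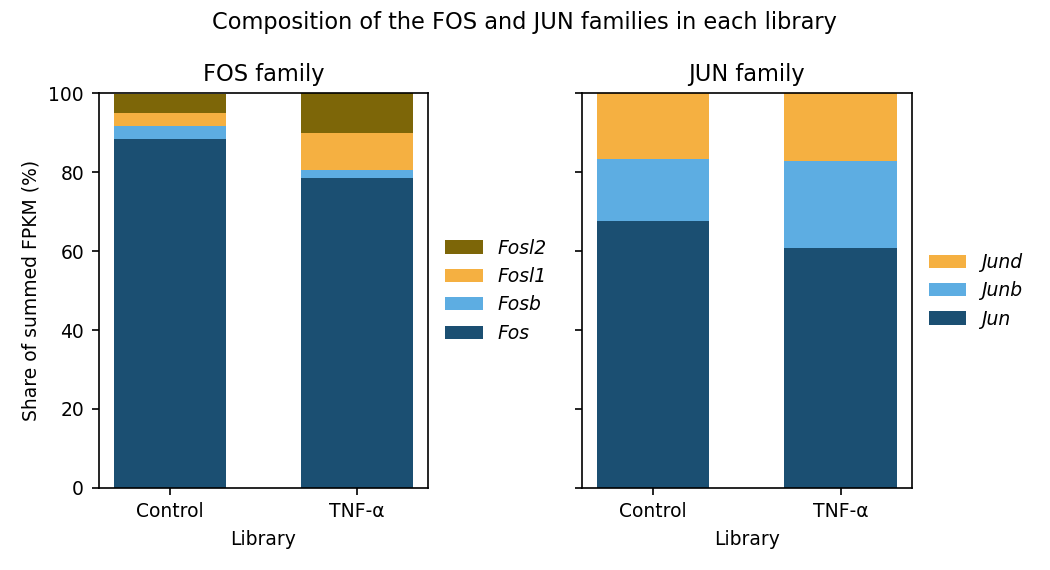
Share of summed FPKM (vertical axis, percent) of each gene within the FOS family (left) and within the JUN family (right), in the 1 control library and the 1 TNF-α library; bars stack to the whole family. *Fos* takes 88.4% of its family in the control library and 78.6% with TNF-α, and *Junb* 15.7% and 22.2% of its family.

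*Atf3* (chr1:191170296-191218039, minus strand) encodes a bZIP factor that stress induces and that can repress its own gene and other immediate early genes. It had 1388 counts in the control library and 1143 with TNF-α, or 14.5 and 9.94 FPKM. Its log2 ratio of -0.54 (-0.65 to -0.43) was close to those of *Jund* and of the 10 genes' median.

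*Egr1* (chr18:34859823-34864984, plus strand) encodes a zinc finger factor whose gene is a standard readout of ERK and serum response factor (SRF) activity. It had 4396 counts in the control library and 2533 with TNF-α, or 22.0 and 10.6 FPKM. Its log2 ratio was -1.05, and the interval of -1.13 to -0.98 held the 2-fold limit, so counting error alone leaves it uncertain on which side of 2-fold *Egr1* lay. The direction was below 0 over the whole interval, also with the counts divided by 2 (-1.16 to -0.95). The call on *Egr1* was lost in edgeR's exact test with an assumed coefficient of variation of 0.2, and at 0.4 those on *Fos* and *Fosb* were lost too.

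*Myc* (chr15:61985391-61990374, plus strand) encodes c-MYC, a factor of the basic helix-loop-helix zipper class that acts on growth and ribosome genes as a dimer with MAX. It had 582 counts in the control library and 1039 with TNF-α, or 4.81 and 7.17 FPKM. Its log2 ratio of 0.57 (0.43 to 0.73) was the highest of the 10 and did not reach 2-fold, and 90.6% of the genes with at least 200 counts had a lower one. *Myc* was the single gene of the 10 whose whole interval lay above 0, while the intervals of 8 genes lay below 0. With the counts divided by 2, that of *Junb*, 1 of these 8, held 0 (-0.13 to 0.01).

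Per exon length the 10 genes spanned a wide range of levels, and their order differed between the libraries. In the control library the order in FPKM was *Jun*, *Fos*, *Jund*, *Junb*, *Egr1*, *Atf3*, *Fosl2*, *Myc*, *Fosb* and *Fosl1*. *Fosb* and *Fosl1*, the last of that order, did not differ beyond counting error (exact Poisson intervals 3.78 to 4.25 and 3.42 to 4.32 FPKM). In the TNF-α library the order in FPKM was *Jun*, *Junb*, *Jund*, *Fos*, *Egr1*, *Atf3*, *Myc*, *Fosl2*, *Fosl1* and *Fosb*. There *Egr1* and *Atf3* overlapped in their intervals (10.2 to 11.0 and 9.38 to 10.5 FPKM), as did *Fosl2* and *Fosl1* (4.62 to 5.0 and 4.04 to 4.92 FPKM). *Fos* thus went from rank 2 to rank 4. *Fosb* was last with TNF-α, while its place beside *Fosl1* in the control library was not settled beyond counting error.

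**Figure D3:**
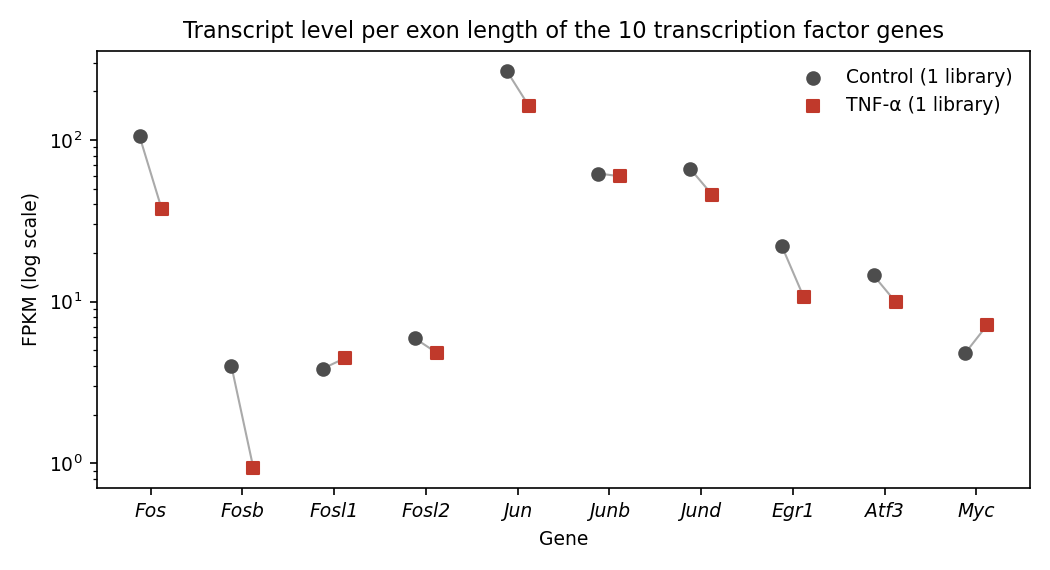
Level of each of the 10 genes (horizontal axis) in FPKM on a log scale (vertical axis) in the control library (circles) and the TNF-α library (squares), 1 library each, with a grey line joining the values of a gene. *Jun* is highest in both, at 268 and 163 FPKM, and *Fosb* has the steepest line, from 4.01 to 0.934 FPKM.

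Cell type markers were set beside these ratios, since the cultures could hold more than 1 cell type. Counts past 2-fold in the marker lists stand against 8.56% higher and 6.62% lower among all 20771 genes, and 4.01% and 2.87% among those with at least 200 counts. All 10 basal markers were counted, with *Krt14* the most abundant (229766 counts in the control library, 259922 with TNF-α, log2 ratio -0.08 after scaling). Their summed level, in counts scaled to library size (CPM), was 12185 without and 11267 with TNF-α. *Oxtr*, the oxytocin receptor gene of myoepithelial cells, was the 1 basal marker of 10 past 2-fold lower, from 10762 to 5630 counts (log2 ratio -1.19, -1.24 to -1.15). *Cnn1*, a smooth muscle calponin gene, was next at -0.74 (5411 and 3868 counts), and *Krt17* (0.31) and *Mylk* (0.18) were the highest.

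Luminal markers were also abundant in both libraries, with all 12 counted and *Krt8* the most abundant (54056 and 60420 counts, log2 ratio -0.1 after scaling). Their summed level was 4482 CPM in the control library and 3599 CPM with TNF-α. Of the 12, 10 had ratios below 0 and 3 were past 2-fold lower, against 2.87% of all genes with at least 200 counts, with a list median of -0.80. *Pgr*, the progesterone receptor gene, fell from 7228 to 2970 counts (log2 ratio -1.54), and *Esr1*, the oestrogen receptor gene, from 2547 to 1094 (-1.48). *Prlr*, the prolactin receptor gene, was the other gene past the limit, at -1.15, and was named after its values were seen. *Cldn3* (0.42) and *Epcam* (0.29) were the highest. These hormone receptor genes moved in the direction of *Fos*, *Fosb* and *Egr1*, and the part of cell composition in the ratios of the AP-1 genes was not tested. By FACS, the paper reports a significantly larger share of basal cells in cultures with TNF-α. It does not state whether those were the cultures sequenced here.

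Markers of other cell types had fewer reads than the basal and luminal lists. The 8 fibroblast markers summed to 528 CPM in the control and 535 CPM with TNF-α, with *Col1a2* the most abundant in CPM (9207 and 12199 counts). *Dcn*, the decorin gene, was past 2-fold higher (184 and 582 counts, log2 ratio 1.39), *Thy1* was at 0.77, *Col3a1* at -0.66 and *Pdgfra* at -0.02. The 12 leukocyte markers summed to 23.1 and 30.9 CPM. *Lcp1* was the most abundant of them in CPM in the control library (382 and 535 counts), and *Cd14*, also made by epithelial cells, was past 2-fold higher (276 and 756 counts, log2 ratio 1.19). *Lyz2* had a log2 ratio of -0.32. Of the defining leukocyte and macrophage genes, named after their values were seen, *Ptprc* had 26 and 38 counts, *Csf1r* 92 and 81, *Cd68* 83 and 75, *Itgam* 50 and 40, and *Adgre1* 0 and 2, so most were low and not absent. *Cd3e* had 0 counts in both libraries, which allows up to 0.0673 CPM in the control and 0.0562 CPM with TNF-α, the worth of 3 counts. The 5 endothelial markers summed to 7.07 and 6.75 CPM, with *Pecam1* (117 and 114 counts, log2 ratio -0.29) the most abundant in the control library and *Cdh5* at 0.22. Of 4 adipocyte markers, 1 reached 10 counts, so the list says nothing of a difference in adipocytes. *Plin1* was at 0 in both libraries, *Adipoq* and *Cidec*, named after their values were seen, had 2 counts each in the control library and 0 with TNF-α, and *Lep*, the leptin gene, had 127 counts in the control library and 10 with TNF-α (log2 ratio -3.66, -5.02 to -3.0).

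Other immediate early genes leaned to the same side as the 10. Of 40 such genes with at least 10 counts, 28 had ratios below 0 and 12 above. The median was -0.17 against 0.0038 over all 20771 genes. With the reference genes set to no change, these medians were -0.27 and -0.086. Past 2-fold, 2 of the 40 genes were lower and 1 was higher. For this and the lists that follow, the shares over all 20771 genes were 6.62% lower and 8.56% higher. These lists were chosen with earlier results of these data known, so their counts and medians are descriptive only. *Nr4a1*, an orphan nuclear receptor gene induced by growth signals, fell from 5630 to 2048 counts, or from 51.1 to 15.5 FPKM (log2 ratio -1.72, -1.79 to -1.65). The other gene past 2-fold lower was *Klf2*, named after its values were seen, with 63 counts in the control library and 24 with TNF-α (-1.57, -2.40 to -0.95). *Zfp36*, whose protein destabilizes AU-rich mRNAs, had 1574 and 1146 counts and a log2 ratio of -0.72. *Nfkbia*, which encodes the NF-κB inhibitor IκBα and is itself an NF-κB target, rose from 2156 to 10342 counts (log2 ratio 2.0, 1.94 to 2.07). *Maff*, a small MAF gene that is also counted among the bZIP partners below, had 539 and 1142 counts (0.82). So the class did not move as 1 block, and its NF-κB feedback gene was at the far end from *Nr4a1* and *Fosb*.

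The genes of other bZIP partners of FOS and JUN had ratios above 0 for 10 of 19 and below 0 for 9, with a median of 0.01, or -0.09 with the reference genes set to no change. Of these, 2 were past 2-fold higher and 0 lower. *Batf*, whose protein pairs with JUN proteins and lacks a transactivation domain, rose from 178 to 498 counts (log2 ratio 1.22, 0.97 to 1.48), with an interval that reached below the 2-fold limit. *Batf3*, named after its values were seen, had 4 and 14 counts and an interval of -0.12 to 3.61 around its ratio of 1.22, so that a difference was not detectable at this depth. *Jdp2*, whose protein binds JUN and represses AP-1 sites, had 5438 and 3863 counts (-0.75, -0.81 to -0.69), or 64.9 and 38.5 FPKM.

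Of 35 genes for kinases and SRF factors that act on these genes, 1 was past 2-fold higher and 0 lower, and the median was 0.01. With 4.01% higher and 2.87% lower among all genes with at least 200 counts, such a count is near the background. That gene was *Mapk11*, for p38β, at 100 counts in the control library and 281 with TNF-α (log2 ratio 1.22, 0.90 to 1.57). *Traf2*, an adaptor of the TNF receptor, had 826 and 1726 counts (0.80, 0.68 to 0.92). *Mapk12* and *Map2k2* were the lowest, both at -0.27. Read counts do not show phosphorylation, by which these kinases act. From immunoblots of organoids, the paper reports that TNF-α could activate the ERK cascade.

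Heat shock genes, which like *Fos* and *Jun* respond to cell handling, were compared as a measure of handling. Of 12, 0 passed 2-fold in either direction, with a median of 0.01. The lowest were *Hspa1b* (14928 and 13845 counts, -0.37) and *Hspa1a* (3531 and 3454 counts, -0.29), and the highest *Dnajb1* (0.47) and *Hspa5* (0.44). The part of cell handling in the ratios of *Fos* and *Fosb* was not tested.

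Genes known to carry AP-1 sites or to depend on AP-1 had a median log2 ratio of 0.54, while *Fos* and *Jun* were below 0. Of 29 such genes, 8 were past 2-fold higher and 2 lower, against 8.56% and 6.62% of all genes tested, and 19 ratios were above 0. Of the 28 with at least 200 counts, 8 were past 2-fold higher and 2 lower, against 4.01% and 2.87% in that class. This list, too, was chosen with earlier results of these data known, so its excess over those shares is no independent evidence. *Mmp3*, the stromelysin gene, rose from 46 to 5397 counts (log2 ratio 6.56, 6.20 to 7.07). *Ccl2*, a monocyte chemokine gene, rose from 16 to 1113 counts (5.71, 5.15 to 6.67). At the other end, *Ivl*, the involucrin gene of squamous differentiation, fell from 6467 to 1341 counts (-2.53, -2.62 to -2.44). *Areg*, which encodes the EGF receptor ligand amphiregulin, fell from 3126 to 722 counts (-2.37, -2.49 to -2.26). Several of these genes are also known NF-κB targets, and AP-1 binding was not measured.

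Genes of EGR1 and MYC function were described in the same way. Of 10 EGR co-repressors and targets, 2 were past 2-fold higher and 1 lower. *Ptges*, a prostaglandin E synthase gene (83 and 674 counts, log2 ratio 2.74), and *Vegfa* (4366 and 21584 counts, 2.05), which is also on the AP-1 list, were highest. *F3*, the tissue factor gene, went from 4078 to 2369 counts (-1.04, -1.12 to -0.97), a ratio within counting error of that of *Egr1*, and *Pdgfa* was next at -0.28. Of 36 MYC targets, 31 had ratios above 0, 1 was past 2-fold higher and 0 were lower, with a median of 0.23. That median was 0.14 with the reference genes set to no change. *Ccnd2*, the cyclin D2 gene, had 1167 and 2908 counts (1.06, 0.96 to 1.16, an interval that held the 2-fold limit), and *Ldha*, for lactate dehydrogenase, 7650 and 16442 (0.84). *Cad* (-0.26) and *Polr1b* (-0.15) were the lowest. Of 13 genes of the MAX network, 0 were past 2-fold higher and 1 lower. That gene was *Mycl*, a paralog of *Myc*, which fell from 2168 to 988 counts, or from 12 to 4.59 FPKM (log2 ratio -1.39, -1.50 to -1.28). *Mycn*, the other paralog, had 365 and 229 counts (-0.93, -1.18 to -0.69), so *Myc* was the single one of the 3 with a ratio above 0. Per exon length *Mycl* was above *Myc* in the control library and below it with TNF-α. *Mxd3*, a MAX partner that represses, had 356 and 851 counts (0.99, 0.82 to 1.18), and *Mxi1* was at 0.05.

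The promoters of *Fosb* and *Junb*, the lowest and the highest ratio among genes with a RefSeq promoter entry, are given to set their sequences beside these values, and that of *Fos* was added after its values were seen. RefSeq (GRCm38.p6) had entries of 250 bases before to 50 bases after the start for 7 of the 10 genes, and none was used for *Fosl1*, *Egr1* or *Myc*. Motifs were searched on both strands. The AP-1 motif was TGACTCA, and the cAMP response element (CRE), which also takes ATF dimers, was TGACGTCA. The E-box of MYC and its partners was written CACGTG, and the EGR motif was GCGTGGGCG. The TATA box was TATAAA, and the CArG box of SRF and the NF-κB site were also searched. Each sequence runs 5′ to 3′ along the gene's strand and ends at the base before the first exon in the count table. Capitals mark the matched letters.
Fos, chr12:85473640-85473889, plus strand: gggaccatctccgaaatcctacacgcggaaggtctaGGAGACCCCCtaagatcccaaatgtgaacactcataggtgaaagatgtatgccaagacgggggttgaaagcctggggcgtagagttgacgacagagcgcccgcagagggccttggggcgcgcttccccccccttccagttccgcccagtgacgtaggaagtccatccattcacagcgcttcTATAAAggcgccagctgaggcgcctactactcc
Fosb, chr7:19310052-19310295, minus strand: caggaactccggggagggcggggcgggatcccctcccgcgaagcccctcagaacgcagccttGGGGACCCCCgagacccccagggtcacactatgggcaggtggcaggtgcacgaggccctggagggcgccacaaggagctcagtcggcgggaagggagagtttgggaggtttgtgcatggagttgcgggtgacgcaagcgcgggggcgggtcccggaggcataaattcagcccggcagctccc
Junb, chr8:84978719-84978998, minus strand: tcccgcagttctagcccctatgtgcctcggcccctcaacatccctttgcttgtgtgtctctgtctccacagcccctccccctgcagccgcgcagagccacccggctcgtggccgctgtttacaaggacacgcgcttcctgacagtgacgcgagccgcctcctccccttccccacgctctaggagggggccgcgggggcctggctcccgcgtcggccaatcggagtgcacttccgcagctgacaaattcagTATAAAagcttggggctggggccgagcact

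In the 300-base windows, TATAAA occurred in *Fos* and *Junb*, which is 2 of the 7, against 14.2% of 27025 promoters. The match in *Fos* lies at -33 from the RefSeq start. In *Junb* it lies at the RefSeq start itself, and the first exon of the count table begins 30 bases further downstream. The NF-κB site matched in *Fos* (minus strand), *Fosb* and *Fosl2*, 3 of the 7, against 8.18% of all promoters. In *Fosl2* a pair of overlapping matches was found, on opposite strands. The AP-1, CRE, E-box, EGR and CArG letters were in 0 of the 7 windows, and they are in 5.17%, 1.88%, 7.24%, 0.625% and 1.57% of all promoters in that order. An absent match says only that these letters are not in this window. The RefSeq starts of *Fosl2*, *Jund* and *Atf3* lie 671, 1210 and 34706 bases from those of the count table, so their windows may not be the promoters behind these counts.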

How the data were processed

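The authors deposited 1 table of raw read counts per gene, with exon coordinates, strand and summed exon length. Builds GRCm38 and mm10 come from the submitters' processing notes. Aligner, counting tool and read filters are not given in the sources used here. Of 47240 gene names shared with GENCODE, 90.9% had the same coordinates; *Fosl1* did not, the other 9 genes did. Even counts were in excess (2172 control genes with 2 counts, 618 with 1), as when both read ends are counted.

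Counts were scaled by TMM in edgeR (version 4.0.16, R 4.3.3). Log2 ratios of CPM used a prior count of 2, and genes needed 10 or more summed counts. The quasi-likelihood test could not be fitted with 1 library per group. FPKM used the deposited exon lengths. In CPM, 10 counts are 0.224 in the control library and 0.187 with TNF-α.

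Named genes are the 10, the 2 highest and 2 lowest ratios of each list among genes with at least 200 summed counts, the most abundant marker, markers at 0 and genes with overlapping exons. The 10 genes and the lists were chosen with earlier results of these data known. DESeq2 (version 1.42.0) size factors, total counts, upper quartile, reference genes, other prior counts, filters and folds, halved and thinned counts were alternatives. Other software was Python 3.11.15 with scipy 1.17.1, pandas 2.3.3 and numpy 2.4.6; matplotlib 3.10.9 drew the plots and statsmodels 0.14.6 adjusted p-values of 1 alternative. Protein sequences were not used here, and 2 genes that the naming rule takes are not reported here.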

Additional observations from a re-analysis of the deposited data

How the results depend on the processing

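Over 4 other scalings, 2 other prior counts, halved counts and thinned counts, *Fos* ranged from -1.58 to -1.49, *Fosb* from -2.19 to -2.08, *Egr1* from -1.15 to -1.03 and *Myc* from 0.48 to 0.58. Of 80 ratios of the 10 genes under these settings, 74 stayed within their counting interval, 6 moved past it and 0 changed the direction of a called gene. With the reference genes set to no change, the median of the 10 was -0.63, and 6 list medians moved past counting error: MYC targets to 0.14, turnover enzymes to -0.05, heat shock genes to -0.08, basal markers to -0.23, luminal markers to -0.89 and the reference genes to 0. Within counting error, the medians of the bZIP partners (-0.09), the kinases and SRF factors (-0.08) and the EGR list (-0.06) also went below 0. This setting lowered all ratios nearly alike, and the median over all 20771 genes went from 0.004 to -0.086. The moves are therefore not particular to these lists. The 3 lower genes were the same under each filter and with a test on the reads. At a fold of 1.5, *Jun* joined them. With an assumed coefficient of variation of 0.2, 2 (*Fos* and *Fosb*) were called, and at 0.4, 0 were. Genes called higher and lower numbered 2679 and 2996 with no filter, 836 and 658 at 1 CPM or more, 546 and 390 at 200 counts or more, 3210 and 2846 at a fold of 1.5, 745 and 523 at a coefficient of variation of 0.2, and 91 and 54 at 0.4. Each of these counts follows from its own filter, fold or assumed variation, set on the same libraries. Reads in place of FPKM moved 14 family shares, since exon lengths differ. No paired analysis was possible with the 1 library per condition in these data. Depth limits the ratio of *Fosl1* most, and the variation between cultures was not measured.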

Other observations

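Of 14 genes for enzymes that act on JUN, FOS or MYC protein, 0 passed 2-fold in either direction, a count near the background of 4.01% higher and 2.87% lower among genes with at least 200 counts. Their median log2 ratio was 0.04, or -0.05 with the reference genes set to no change. *Skp2*, whose ubiquitin ligase acts on MYC, had 156 counts in the control library and 310 with TNF-α (log2 ratio 0.72, 0.45 to 1.02). *Aurka*, a kinase gene of dividing cells, had 1071 and 1970 counts (0.62, 0.51 to 0.73). *Rfwd2*, for the ubiquitin ligase COP1 that acts on JUN, had 5074 and 4599 counts (-0.40, -0.46 to -0.34), and *Usp36* was at -0.25. Among 11 common reference genes 0 passed 2-fold, with a median of 0.09. *Tfrc* (0.37), which is also on the list of MYC targets, and *Ppia* (0.32) were highest, and *Polr2a* was lowest at -0.28.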
